A study of Mus musculus with 6 samples.

Results

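The nucleolus is the nuclear body in which ribosomes are made. RNA polymerase I transcribes the ribosomal DNA there, small nucleolar ribonucleoproteins (snoRNPs) guide chemical modification and cleavage of the precursor rRNA, and a large set of assembly factors fold, trim and package it into the small and the large ribosomal subunit. Thymocytes that have just received a T cell receptor (TCR) signal enlarge and raise their biosynthetic capacity, and the transcription factor Myc is a known activator of many genes of this machinery.

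Expression of 48 nucleolar ribosome biogenesis genes was examined here, out of 48397 genes in the count table. The 48 were chosen by name, for their function, with earlier results of these data known. They were divided into RNA polymerase I transcription (6 genes), box C/D snoRNPs and their chaperone (5), box H/ACA snoRNPs (4), small subunit assembly (12), large subunit assembly (16) and other nucleolar proteins (5). All 48 were found, 47 under their own symbol and Utp4 as Cirh1a, and all 48 were among the 12312 genes that passed the filter on low counts.

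The study asked whether weaker TCR signaling alters the developmental program of invariant natural killer T (iNKT) cells at their earliest thymic stage. RNA was sequenced from stage 0 iNKT cells of BALB/c mice and of SKG mice, which carry a germline hypomorphic mutation of Zap70, the kinase that relays the TCR signal, on the same BALB/c background. The cells were sorted as PBS57-CD1d tetramer+, CD44-, CD24+, CD69+, CD4lo/- and CD8-, from mice aged 8 to 10 weeks. Each genotype had 3 libraries, and each library came from the pooled thymi of 3 mice and about 1000 cells, so the spread between libraries is a spread between pools.

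The libraries held 37176544 to 43115544 counted reads, and genes with at least 10 reads numbered from 10835 in SKG replicate 3 to 14791 in SKG replicate 1. T cell transcripts were present in every library, with Cd3e at 798 to 1100 and Trac at 704 to 917 CPM (counts relative to library size, scaled by TMM factors). Egr2, which is induced by TCR signals, was at 1550, 1100 and 1410 CPM in BALB/c and 883, 956 and 493 CPM in SKG libraries, without overlap. Cd69, a protein used in the sort, was at 312 to 391 CPM in BALB/c and 152 to 250 CPM in SKG libraries, again without overlap, and Cd24a, also used, at 7.31 to 52.4 and 31.9 to 90.7 CPM. Among 7 marker lists, none had summed levels that separated the genotypes. Double-positive thymocyte markers (7 genes, Rag1, Rag2 and Ptcra at 0 in at least 1 library) summed to 66.5 to 437 CPM in BALB/c and 71.1 to 221 CPM in SKG libraries. B cell markers (5 genes, 4 of them at 0 in at least 1 library) summed to 6.87 to 94.9 and 4.47 to 45 CPM. Both sums were highest in BALB/c replicate 1. Myeloid markers (5 genes, Csf1r, Itgam and C1qa at 0 in at least 1 library) summed to 3.41 to 69.6 CPM in BALB/c and 6.65 to 135 CPM in SKG libraries, with the highest value in SKG replicate 3. Erythroid markers (5 genes, each at 0 in at least 1 library) reached 67.0 CPM in BALB/c replicate 1 and at most 1.53 CPM elsewhere, and thymic epithelial markers (5 genes, 4 of them at 0 in at least 1 library) summed to 28.1 to 40.3 and 10.0 to 86.9 CPM. Proliferation genes (14, Plk1 at 0 in at least 1 library) summed to 1920 to 2220 CPM in BALB/c and 1570 to 2110 CPM in SKG libraries. Mcm genes made up most of that sum, which hides the spread of single genes. Mki67 was at 66, 0.027 and 2.46 CPM in BALB/c and 17, 25 and 36.1 CPM in SKG libraries. Mcm2 did not overlap, at 490, 534 and 385 against 316, 362 and 345 CPM. Of the 14, 7 were fitted lower and 7 higher in SKG cells. The part of other cells in the results was not tested, and in bulk RNA fewer expressing cells and less RNA per cell cannot be told apart.

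As a group the nucleolar genes were abundant and differed little between genotypes. They took 0.943%, 0.991% and 0.969% of all counted reads in BALB/c replicates 1, 2 and 3, and 0.934%, 0.900% and 0.755% in SKG replicates 1, 2 and 3. Every SKG share was thus below every BALB/c share, but SKG replicate 1 lay only just under BALB/c replicate 1 and SKG replicate 3 stood well below the rest. On the TMM-scaled sum the groups overlapped, at 9493, 10030 and 9255 CPM in BALB/c (mean 9590 ± 395, SD, n = 3) and 9332, 9149 and 7758 CPM in SKG (8750 ± 861, SD, n = 3). SKG replicate 3 was the lowest of the 6 libraries for 23 of the 48 genes, and BALB/c replicate 1 the highest for 16.

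**Figure D1:**
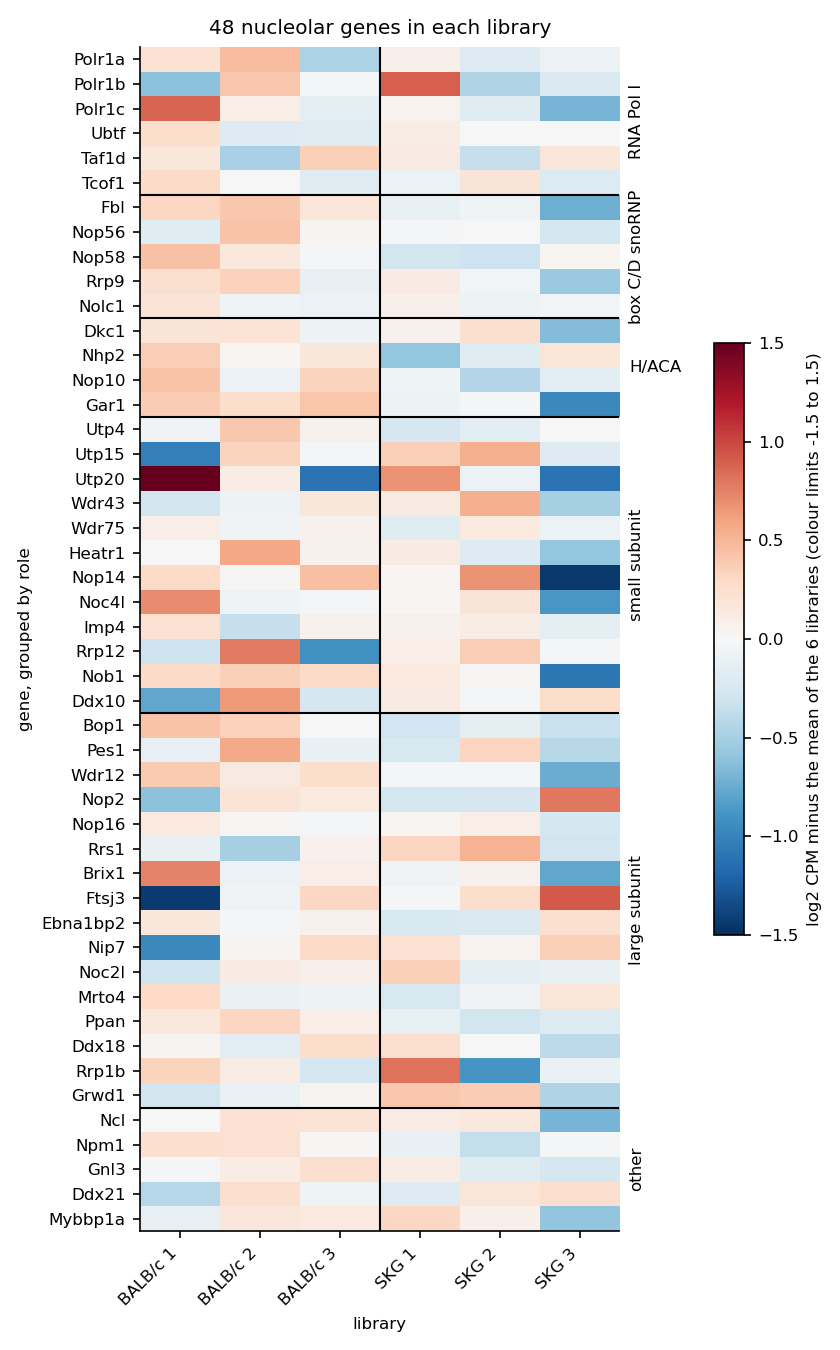
Heat map of the 48 nucleolar genes (rows, grouped by role) in the 6 libraries (columns), with colour giving log2 CPM minus the mean of the 6 libraries for that gene, limited to -1.5 to 1.5. SKG replicate 3 holds the lowest value for 23 genes, and the box C/D and H/ACA rows are mostly redder in BALB/c than in SKG libraries.

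None of the 48 genes passed the test for a difference between SKG and BALB/c cells. With the edgeR quasi-likelihood test over all genes, where a call needed an FDR below 0.1 together with a 1.5-fold difference, 0 of 48 were called, with a lowest FDR of 0.830, and the same test called 0% of all 12312 genes. DESeq2 without shrinkage called 1.54% of all genes and none of the 48, whose lowest DESeq2 FDR was 0.197. In edgeR 33 of the 48 had a fitted log2 fold change below 0, meaning lower in SKG cells (68.8%, against 51.0% of all genes tested), and 15 were above 0. The median log2 fold change was -0.15 for the 48 genes and -0.02 for all genes, and the values ran from -0.65 for Gar1 to 0.67 for Ftsj3.

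At an unadjusted p under 0.05 the count was 2 of 48 (4.17%), against 5.45% of all genes in either direction. Both were lower in SKG cells, where the share over all genes was 2.38%, and no member was higher at that threshold, against 3.07% of all genes. The share of nucleolar genes past this threshold was therefore near that of any gene. In 7 of the 48 (14.6%) every SKG library lay below every BALB/c library, as was so for 7.12% of all genes, and in none did every SKG library lie above, against 6.77% of all genes. These 48 genes were also more abundant than all genes tested, with a median of 141 CPM against 30.5. Their coefficient of variation within a genotype was lower, with medians of 16.6% against 37.5% in BALB/c and 22.3% against 38.4% in SKG libraries. The part of abundance in these counts was not tested.

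The precision of the fit limited how small a difference could be seen. The 95% interval of the log2 fold change lay within a 2-fold difference either way for 28 of the 48 genes (58.3%), and for 19.8% of all genes tested. Its median half-width was 0.63 on the log2 scale, from 0.33 for Nolc1 to 1.74 for Utp20. For the remaining 20 genes a 2-fold difference lay inside the interval.

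**Figure D2:**
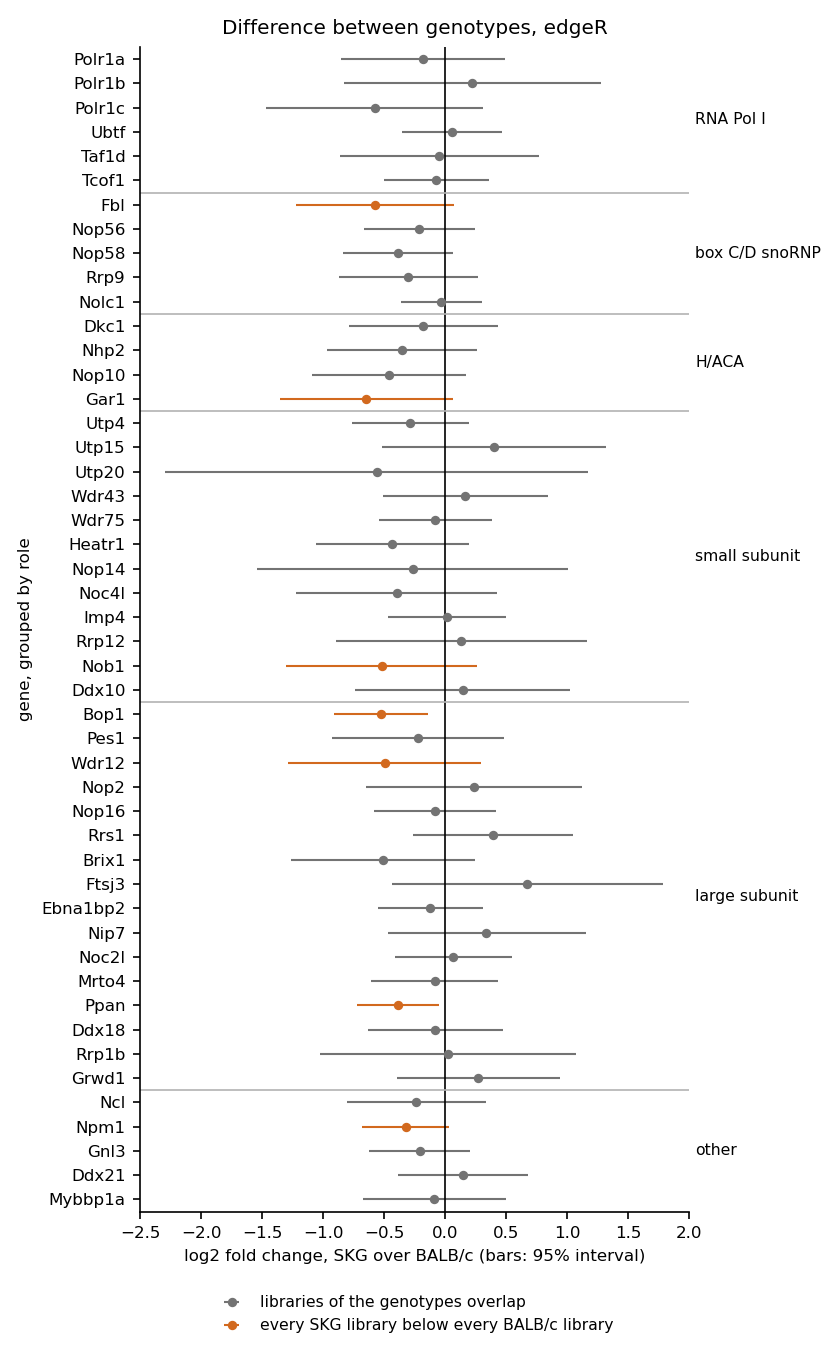
Log2 fold change of each nucleolar gene, SKG over BALB/c (horizontal axis), with its 95% interval from edgeR, genes grouped by role. Points lie between -0.65 and 0.67, and orange marks the 7 genes whose SKG libraries were all below the BALB/c libraries.

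Among genes of RNA polymerase I transcription no separation between the genotypes was seen. Polr1a and Polr1b encode the large catalytic subunits, Polr1c a subunit shared with RNA polymerase III, Ubtf the factor that binds the ribosomal DNA promoter, Taf1d a part of the promoter selectivity complex, and Tcof1 the protein treacle, which supports ribosomal DNA transcription. Of the 6, 4 had fitted values below 0 and the median log2 fold change was -0.06. Ubtf was steady, with 281, 206 and 208 CPM in BALB/c and 253, 236 and 234 CPM in SKG libraries, a log2 fold change of 0.06 ± 0.17 (SE). Tcof1 gave 452, 370 and 328 CPM against 350, 423 and 323 CPM, and the ranges again overlapped. Polr1c had the lowest fitted value of the role, -0.58 ± 0.37 (SE), with BALB/c replicate 1 at 110 CPM and the other 5 libraries at 37.1 to 64.6 CPM.

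All 5 genes of the box C/D role had fitted values below 0, with a median log2 fold change of -0.30, though none passed the test. Box C/D snoRNPs direct methylation of ribose in rRNA. Fbl, fibrillarin, is their methyltransferase, and its levels were 87.2, 92.8 and 79.7 CPM in BALB/c and 64.9, 67.7 and 42.1 CPM in SKG libraries. The SKG values were all lower, and the fitted log2 fold change was -0.57 ± 0.27 (SE), with an edgeR FDR of 0.952. Nop56 and Nop58 are the core scaffold proteins of the same particle. Nop56 gave 359, 546 and 418 CPM against 397, 407 and 338 CPM, and Nop58 gave 259, 213 and 189 CPM against 158, 154 and 195 CPM. In both genes 1 SKG library or more lay inside the BALB/c range. Rrp9, a protein of the snoRNP needed for small subunit processing, had a log2 fold change of -0.30 ± 0.24 (SE), and Nolc1, a chaperone of snoRNPs, had -0.03 ± 0.14 (SE) from 473, 392 and 386 CPM in BALB/c and 433, 391 and 398 CPM in SKG libraries. Nolc1 was the most tightly estimated of the 48.

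The 4 box H/ACA genes were likewise all fitted below 0, with a median of -0.41. These particles convert uridine to pseudouridine in rRNA, and their core is Dkc1 (the pseudouridine synthase dyskerin), Nhp2, Nop10 and Gar1. Gar1 stood at 112, 103 and 115 CPM in BALB/c and 81.3, 84.8 and 43.9 CPM in SKG libraries. The groups did not overlap, and SKG replicate 3 was far below the other SKG libraries. The fitted log2 fold change was -0.65 ± 0.30 (SE), the lowest of the 48 genes, with a 95% interval of -1.36 to 0.06 and an edgeR FDR of 0.952. Nop10 gave 88.5, 61.5 and 83.0 CPM against 62.8, 48.2 and 58.4 CPM, so that BALB/c replicate 2 lay just under SKG replicate 1. Dkc1 (212, 213 and 176 against 194, 219 and 118 CPM) and Nhp2 (121, 96.1 and 106 against 63.1, 83.1 and 107 CPM) overlapped more widely.

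Small subunit assembly showed no common direction, with 7 of 12 fitted below 0 and a median of -0.17. Nob1, the endonuclease that makes the final cut at the end of the small subunit rRNA, was the only gene of this role without overlap, at 160, 168 and 160 CPM in BALB/c and 146, 133 and 61.9 CPM in SKG libraries. The BALB/c libraries were within a log2 range of 0.07, whereas the SKG libraries spread over 1.24, most of it from SKG replicate 3. Its log2 fold change was -0.52 ± 0.33 (SE), with an edgeR FDR of 0.979, and -0.21 without SKG replicate 3. Imp4, a partner of the processome snoRNP, had the fold change nearest to 0 of all 48 genes, 0.02 ± 0.20 (SE), from 176, 118 and 157 CPM against 157, 162 and 137 CPM.

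The widest spread within a genotype was also in this role. Utp20, a large scaffold protein of the small subunit processome, gave 193, 72.9 and 31.3 CPM in BALB/c and 107, 63.4 and 31.2 CPM in SKG libraries, a log2 range of 2.63 among BALB/c and 1.78 among SKG libraries. Nop14, another processome factor, gave 59.3, 49.1 and 66.4 CPM against 49.7, 77.8 and 17.8 CPM, with SKG replicate 3 again lowest. In both genes the spread within a genotype exceeded the difference between the genotypes. Utp4, Utp15, Wdr43, Wdr75 and Heatr1 belong to the subcomplex that joins the precursor rRNA first, and their log2 fold changes of -0.29, 0.40, 0.16, -0.08 and -0.43 had no sign in common. Noc4l, Rrp12 and Ddx10, further assembly factors, had values of -0.40, 0.13 and 0.14, and all 3 overlapped between the genotypes.

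Large subunit assembly held both genes at an unadjusted p under 0.05. Bop1, on the reverse strand of chr15:76452989-76477277 (GRCm38), encodes a subunit of the PeBoW complex, which is needed for large subunit rRNA maturation. Its levels were 425, 401 and 318 CPM in BALB/c (mean 381 ± 56.4, SD, n = 3) and 259, 285 and 252 CPM in SKG libraries (265 ± 17.8, SD, n = 3). Every SKG library was lower, by a log2 fold change of -0.52 ± 0.16 (SE, 95% interval -0.91 to -0.14), with an unadjusted edgeR p of 0.0150 and an FDR of 0.830. The other PeBoW subunits, Wdr12 and Pes1, were at lower levels. Wdr12 gave 60.3, 50.5 and 54.9 CPM against 45.3, 44.8 and 27.4 CPM, without overlap, and a log2 fold change of -0.50 ± 0.33 (SE). Pes1 gave 134, 217 and 135 CPM against 123, 183 and 109 CPM, where SKG replicate 2 exceeded 2 of the BALB/c libraries, and a log2 fold change of -0.23 ± 0.29 (SE).

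Ppan, on the forward strand of chr9:20888175-20892178, encodes a conserved factor of large subunit assembly. It gave 256, 285 and 245 CPM in BALB/c (262 ± 20.5, SD, n = 3) and 212, 189 and 199 CPM in SKG libraries (200 ± 11.6, SD, n = 3). The genotypes were apart and each was tight. The log2 fold change was -0.39 ± 0.14 (SE, 95% interval -0.73 to -0.05), with an unadjusted edgeR p of 0.0297 and an FDR of 0.847. Without SKG replicate 2 the unadjusted edgeR p was 0.102.

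The other large subunit factors moved in either direction, and over the 16 genes 9 were fitted below 0 with a median of -0.08. Ftsj3, an rRNA methyltransferase, had the highest fitted value of all 48 genes, 0.67 ± 0.46 (SE), from 75.1, 195 and 251 CPM against 201, 244 and 385 CPM. Its groups overlapped, BALB/c replicate 1 was low and SKG replicate 3 high, and its edgeR FDR was 0.988. Nop2, also a methyltransferase, gave 110, 192 and 186 CPM against 141, 142 and 292 CPM. Brix1, an early assembly factor, gave 261, 146 and 167 CPM against 150, 162 and 90.7 CPM. Rrs1, which helps to place the smallest rRNA into the large subunit, had a log2 fold change of 0.39, and Nip7 and Grwd1 had 0.34 and 0.27. Ebna1bp2, Nop16, Mrto4 and the helicase Ddx18 lay between -0.12 and -0.08, and Noc2l and Rrp1b at 0.07 and 0.02, none of them outside the spread of the libraries.

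Of the other nucleolar proteins, Npm1 was without overlap. Npm1, nucleophosmin, is a histone and ribosome chaperone that organizes the outer layer of the nucleolus, and it gave 484, 475 and 412 CPM in BALB/c (457 ± 39.4, SD, n = 3) and 376, 317 and 402 CPM in SKG libraries (365 ± 43.7, SD, n = 3). The closest libraries were BALB/c replicate 3 and SKG replicate 3, only just apart. The log2 fold change was -0.32 ± 0.15 (SE), with an edgeR FDR of 0.952. Ncl, nucleolin, which binds precursor rRNA, was the most counted of the 48, at 1100, 1270 and 1260 CPM against 1180, 1220 and 673 CPM. SKG replicates 1 and 2 were inside the BALB/c range and SKG replicate 3 far below it, so that the log2 fold change was -0.23 with all libraries and 0.007 without SKG replicate 3. Gnl3, nucleostemin, the helicase Ddx21 and Mybbp1a had log2 fold changes of -0.21, 0.15 and -0.09, with overlap in each.

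**Figure D3:**
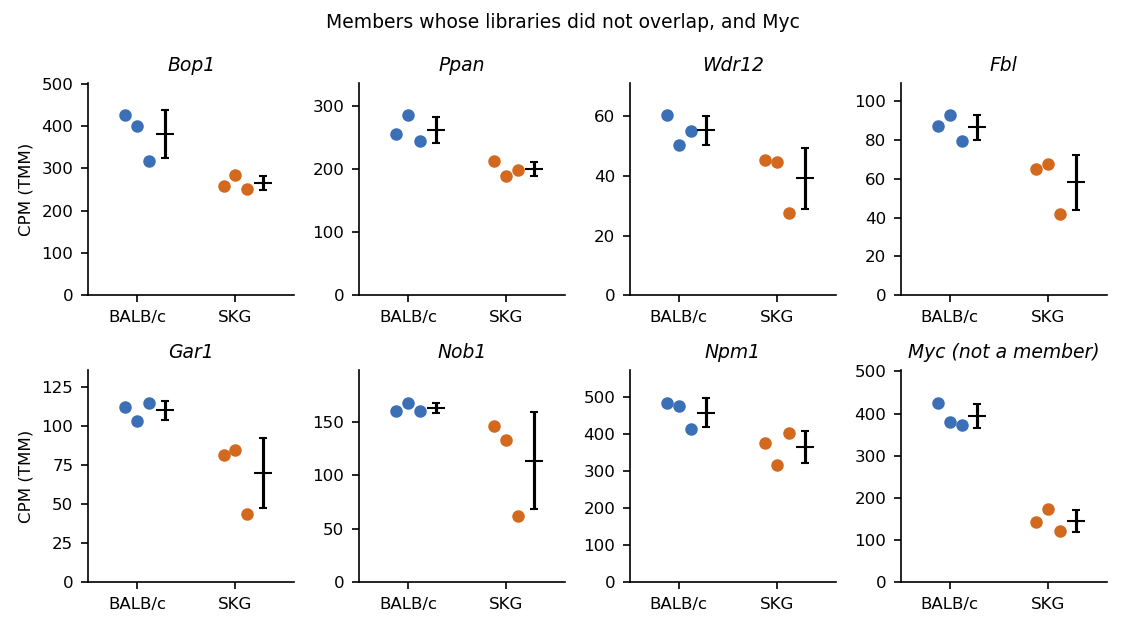
CPM (TMM-scaled, axes from 0) in each library for the 7 nucleolar genes whose genotypes did not overlap and for Myc, with circles for libraries and bars for the mean and SD of 3. For Gar1, Nob1, Fbl and Wdr12 SKG replicate 3 lies well below the other SKG circles, while for Bop1 and Ppan the 3 SKG circles lie close together.

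Myc itself had a larger fitted difference than any of these genes. It gave 426, 381 and 374 CPM in BALB/c and 143, 173 and 121 CPM in SKG libraries, with no overlap. The log2 fold change was -1.43 ± 0.18 (SE), with an FDR of 0.328 in edgeR and 2.50e-09 in DESeq2 without shrinkage, so that the call depended on the tool. The study, which used DESeq2, reported more Myc mRNA in BALB/c than in SKG stage 0 cells. Zap70 mRNA gave 498, 472 and 374 CPM against 322, 338 and 409 CPM, with overlap and a log2 fold change of -0.33 ± 0.17 (SE), and the SKG mutation alters the Zap70 protein, so this level does not check the genotype.

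Because Myc with its partner Max binds the E-box CACGTG, promoter sequences from RefSeq (GRCm38.p6) were searched for these letters, which read the same on both strands. Promoter entries matched 42 of the 48 genes, the others being Npm1, Fbl, Bop1, Rrs1, Rrp12 and Tcof1. From 250 bases before to 50 bases after the start site, 8 of 42 genes (19.0%) held the E-box, against 8.1% of 27025 genes. In the 250 bases before the start alone it was 2 of 42 (4.8%) against 6.9%, so which share was higher depended on the window. The variant CACGCG, searched on either strand, was in 15 of 42 (35.7%) against 10.5% in the wider window. Before the start alone it was in 6 of 42 (14.3%) against 8.7%. The wider windows of these genes were also richer in G and C, with a median of 59.3% against 52.7% over all promoters. The part of base composition in the E-box and variant shares was not tested. The 8 matches are shown in windows of 30 bases, read 5′ to 3′ on the strand of the gene with the E-box in capitals, because they place the motif before or after the start. They lie before the start site of the RefSeq entry in Imp4 and Nop2 and after it in the other 6.
Imp4: acggtcttagacCACGTGacatcccaaatc
Nop2: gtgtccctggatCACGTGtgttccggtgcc
Pes1: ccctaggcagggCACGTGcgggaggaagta
Utp4: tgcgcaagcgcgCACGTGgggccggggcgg
Wdr43: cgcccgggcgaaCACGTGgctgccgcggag
Grwd1: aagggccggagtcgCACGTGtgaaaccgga
Utp20: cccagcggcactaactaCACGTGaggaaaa
Mybbp1a: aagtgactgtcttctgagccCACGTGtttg

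The windows are chr1:34439696-34439725 (forward strand) for Imp4, chr6:125131811-125131840 (forward) for Nop2, chr11:3963965-3963994 (forward) for Pes1 and chr8:106893643-106893672 (forward) for Utp4. Those of Wdr43, Grwd1, Utp20 and Mybbp1a are chr17:71616220-71616249 (forward), chr7:45830740-45830769 (reverse), chr10:88826765-88826794 (reverse) and chr11:72441347-72441376 (forward). The motif began 121 bases before the start in Imp4 and 60 bases before it in Nop2, and at base 3 counted from the start in Pes1, 16 in Utp4, 18 in Wdr43, 35 in Grwd1, 38 in Utp20 and 41 in Mybbp1a. For Mybbp1a and Nop2 the last 25 bases of the window were not found in a GENCODE transcript of the gene. In Wdr43 (chr17:71615895) and Grwd1 (chr7:45830944, reverse) the GENCODE gene begins upstream of the RefSeq start. By those bounds the E-box of both lies more than 50 bases after the start, outside the range searched. The starts, and the matches counted from them, therefore hold for the RefSeq entries alone. Of these 8 genes 4 were fitted lower in SKG cells, with a median log2 fold change of -0.04, and of the 34 genes with a promoter entry and no E-box 25 were lower, with a median of -0.18. Wdr43 and Grwd1, at 0.16 and 0.27, count among the 8 by the RefSeq start alone. The split without them was not computed, so no contrast between the sets is drawn. A match is a description of the letters in the window, not of binding.

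None of the 4 genes without overlap that had a promoter entry (Ppan, Gar1, Nob1 and Wdr12) held CACGTG in it, and of all 42 genes with an entry only 8 (19.0%) did. Bop1, Fbl and Npm1, also without overlap, had no entry. In the wider window Ppan held the variant CACGCG, after the start. The 250 bases before the start are given for Ppan (chr9:20887925-20888174, forward) and Gar1 (chr3:129831397-129831646, reverse), the most tightly estimated and the lowest fitted of the genes whose SKG libraries were all below, in lower case since no motif was found there.
Ppan: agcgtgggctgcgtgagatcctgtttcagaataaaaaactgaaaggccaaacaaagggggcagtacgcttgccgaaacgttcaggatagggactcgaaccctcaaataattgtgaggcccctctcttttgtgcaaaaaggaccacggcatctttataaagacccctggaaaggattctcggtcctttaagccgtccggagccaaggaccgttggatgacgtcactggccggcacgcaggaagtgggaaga
Gar1: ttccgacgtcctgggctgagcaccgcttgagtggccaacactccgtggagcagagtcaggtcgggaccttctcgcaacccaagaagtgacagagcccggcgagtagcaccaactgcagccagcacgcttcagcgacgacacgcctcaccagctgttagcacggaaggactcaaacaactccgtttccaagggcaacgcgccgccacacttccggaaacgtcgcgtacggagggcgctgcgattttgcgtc

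Levels were compared between genes per length of exon, as RPKM (reads relative to exon length and library size). Npm1 was highest at 154 RPKM (171 ± 14.8 in BALB/c and 137 ± 16.4 in SKG libraries, SD, n = 3). Noc2l (115), Ncl (110), Bop1 (109) and Nolc1 (104) followed, and these neighbours did not differ beyond the spread of their libraries. Noc2l, a factor that binds the early large subunit, gave 266, 356 and 343 CPM in BALB/c and 416, 295 and 301 CPM in SKG libraries. Wdr12 was lowest, at 3.95 RPKM. The order depended on the length used. Per kilobase of coding sequence Ncl was first at 526 RPKM and Npm1 second at 469 RPKM, while Noc2l and Bop1, both at 147 RPKM, came further down the order, and the last was Utp20 at 9.94 RPKM, with Wdr12 at 37.2 RPKM.

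**Figure D4:**
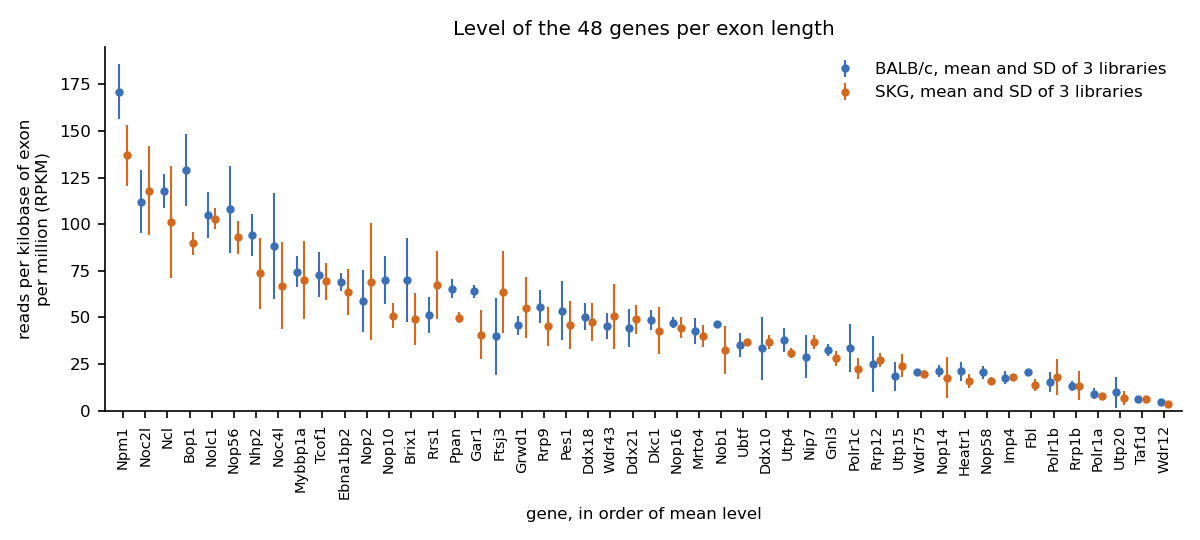
RPKM per union of exons (vertical axis) of the 48 nucleolar genes in order of mean level, with points for the mean and bars for the SD of 3 libraries of each genotype. Npm1 leads at 154 RPKM and Wdr12 is last at 3.95 RPKM, and for most genes the bars of the genotypes overlap.

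A feature shared by several of these genes is that genes of snoRNAs, the guides of the same pathway, lie inside them. An annotated snoRNA gene lay inside 8 of the 48 (16.7%), namely Taf1d, Nop56, Nop58, Dkc1, Wdr43, Ppan, Ncl and Gnl3, against 2.36% of the 11913 tested genes that had a gene model. Of the 8 hosts 7 were fitted lower in SKG cells, Wdr43 being the exception, against 33 of all 48 genes (68.8%). The share among all tested hosts was not computed. With a library left out, the sign could turn for Taf1d, Dkc1, Ncl and Wdr43. The libraries were made from polyA+ RNA, so levels of the snoRNAs were not measured.

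Other genes of ribosome biogenesis were read for comparison, 115 in all, of which 112 were tested. None was called by edgeR, 63 (56.2%, against 51.0% of all genes) were fitted lower in SKG cells, and their median log2 fold change was -0.04. An unadjusted p under 0.05 was found for 3 (2.68%), against 5.45% of all genes. Snu13, the remaining core protein of box C/D snoRNPs, was at 278, 148 and 127 CPM in BALB/c and 94.2, 91.9 and 93.7 CPM in SKG libraries, with no overlap, a log2 fold change of -0.98 ± 0.32 (SE) and an edgeR FDR of 0.830. Rpf2, the partner of Rrs1, was at 144, 75.1 and 85.7 CPM against 51.5, 57.0 and 16.4 CPM, with a log2 fold change of -1.29 ± 0.52 (SE) and an edgeR FDR of 0.905. Ddx31, a helicase of large subunit assembly, went the other way, at 15.3, 24.6 and 27.7 CPM against 51.5, 26.7 and 122 CPM, with a log2 fold change of 1.57 ± 0.61 (SE) and an edgeR FDR of 0.880. Among these genes 9 (8.04%, against 7.12% of all genes) had every SKG library below and 2 (1.79%, against 6.77%) every SKG library above the BALB/c libraries. By role, 9 of 10 genes of snoRNP assembly were fitted lower, 7 of 10 further genes of RNA polymerase I transcription, 19 of 39 of small subunit assembly, 22 of 40 of large subunit assembly and 6 of 13 of the exosome, the complex that trims and degrades nuclear RNA.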

How the data were processed

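Libraries were prepared from polyA+ RNA of sorted stage 0 iNKT cells. The kit is given differently by the sources (SMART-Seq v4 per the labels, SEQR in the study's methods). The authors aligned reads to GRCm38 with HISAT2 2.1.0 and counted them per gene, without strand, with featureCounts (Subread 1.4.4), and deposited raw read counts. A further deposited table holds the authors' DESeq2 fold changes, their errors, test statistics and p-values and was not used.

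Counts were filtered (filterByExpr), scaled by TMM and tested with edgeR 4.0.16 (R 4.3.3) across 12312 genes, with p-values adjusted by Benjamini-Hochberg. A call needed an FDR below 0.1 together with a 1.5-fold difference. DESeq2 1.42.0, limma 3.58.1 (voom), other scalings and filters, and leaving out each library were alternatives. The fits were run on simulated counts with planted changes. A pass was required only where the simulated dispersion (spread between libraries) was far below the common dispersion of 0.842 in these data. That check does not describe power at the spread seen here. Lengths came from GENCODE M21. The 48 genes and all lists were chosen with earlier results of these data known. Values in every library are given for genes with an unadjusted p under 0.05, without overlap, highest per length, of widest spread or nearest to no change, and for further genes chosen after their values were seen. Replicate numbers were not used to pair the samples in the main fit. Residual correlations of same-numbered libraries were -0.145 to -0.00962 by title and -0.0384 to 0.00289 by library number. Libraries of different number were not compared, so a shared preparation was not tested.

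Without strand, reads of antisense neighbours cannot be told apart. Npm1, Ddx18, Mrto4, Wdr12, Taf1d, Pes1 and Ddx21 have copies at least 95% identical elsewhere, so their counts are less certain, and the counted copies held at most 124 reads in any library.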

Additional observations from a re-analysis of the deposited data

How the results depend on the processing

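No alternative called any of the 48 genes. Over all genes, DESeq2 called 189 without shrinkage and 231 with it (fitted on the unfiltered table, 229 of them among the 12312), no filter gave 2, the stricter filter 1, and the other alternatives 0, as in edgeR, where 671 of 12312 had an unadjusted p under 0.05. Nucleolar genes at an unadjusted p under 0.05 numbered 1 with no filter and with the stricter filter, and 1 to 3 with a library left out. The shares of all genes in those fits are not given here, so these counts carry no comparison. By limma-voom 3 of the 48 were under that threshold, against 968 of the 12312 genes. By DESeq2 without shrinkage it was 2, against 1029. With a library left out, the median log2 fold change ran from -0.24, with SKG replicate 1 left out, to -0.09, with SKG replicate 3 left out, the genes fitted lower in SKG cells numbered 27 (without SKG replicate 3) to 36, and those with every SKG library below numbered 9 to 11 (11 without BALB/c replicate 3, SKG replicate 1 or SKG replicate 3), when 11.5% to 13.7% of all genes did. Up to 3 then had every SKG library above, against 10.1% to 13.4% of all genes. For the medians and the numbers fitted lower, the values over all genes in the same fits are not given here. A shift of the whole fit can therefore not be told apart from one of these genes.

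The replicate block by title number gave a median of -0.14, with 34 genes lower. By library number it gave -0.26 with 37 genes lower, but only library numbers 2 and 3 occur in both genotypes, so BALB/c replicate 3 and SKG replicate 1 add nothing to the genotype difference in that fit. Neither paired fit called any gene, and the numbers share no stated source. The medians over all genes in these fits are likewise not given.

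The sign of the fitted value held under all 15 alternatives for 25 of the 48 genes, 20 of them lower in SKG cells. It turned for Rrp1b with limma-voom (-0.10) and the title block (-0.11), for Imp4 with library size alone (-0.018), and, with the library number block, which rests on 2 libraries a genotype, for Polr1b (-0.22), Ubtf (-0.033), Taf1d (0.08), Rrp12 (-0.062), Noc2l (-0.045) and Rrp1b (-0.72). The cause was not tested. With a library left out, the lowest and highest log2 fold changes had opposite signs for Polr1a (-0.40 to 0.019), Polr1b (-0.31 to 0.48), Ubtf (-0.025 to 0.22), Taf1d (-0.27 to 0.14), Tcof1 (-0.18 to 0.073), Nolc1 (-0.083 to 0.072), Dkc1 (-0.35 to 0.057), Utp20 (-1.06 to 0.37), Wdr43 (-0.09 to 0.41), Nop14 (-0.77 to 0.15), Imp4 (-0.13 to 0.15), Rrp12 (-0.17 to 0.73), Ddx10 (-0.12 to 0.61), Pes1 (-0.47 to 0.039), Nop2 (-0.19 to 0.42), Nop16 (-0.15 to 0.034), Noc2l (-0.11 to 0.17), Mrto4 (-0.18 to 0.067), Ddx18 (-0.24 to 0.087), Rrp1b (-0.53 to 0.35), Ncl (-0.37 to 0.007), Ddx21 (-0.003 to 0.32) and Mybbp1a (-0.29 to 0.14).

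With 3 pools a genotype, the 95% interval reached a 2-fold difference for 20 of the 48 genes, although every gene had at least 645 reads in every library.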
